A study of Danio rerio with 4 samples.

Results

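The Wnt pathway genes described here are the 81 gene entries, out of 32512 in the deposited table, whose symbol names a Wnt ligand, a receptor or co-receptor, an R-spondin or its Lgr receptor, a secreted inhibitor, a cytoplasmic transducer, a Tcf/Lef nuclear factor or a core component of planar cell polarity. RNA was taken from whole zebrafish embryos of the Tübingen strain at 48 hours post fertilisation (hpf), all wild type and all injected with a morpholino, a stabilised antisense oligonucleotide. The hace1 group received a morpholino directed at a splice site of hace1 in the part that encodes the HECT domain, and the control group received a standard control morpholino. The labels also report a check of the knockdown by RT-PCR, not analysed here. Each group had 2 libraries, A and B, and per the labels each library pooled 3 RNA samples of about 100 embryos. The labels do not say whether the pools came from separate clutches, so every p-value reflects variation between pools only, and that variation may be technical. The labels put 2 libraries on each sequencing chip without saying which, and if the libraries of a group shared a chip, chip and morpholino cannot be told apart.

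Wnt ligands bind Frizzled receptors together with co-receptors of the Lrp family, and Dishevelled relays the signal into the cell. Without a ligand, a destruction complex built on Axin and Apc marks beta-catenin for degradation. With a ligand, beta-catenin accumulates, enters the nucleus and binds Tcf/Lef proteins at target genes such as axin2, itself a negative feedback component. R-spondins raise the number of receptors at the cell surface, whereas Dkk and Sfrp proteins block signalling outside the cell. A separate branch, with Vangl and Prickle proteins at its core, orients cells within a tissue and needs no beta-catenin. In the zebrafish embryo Wnt signalling is known for its parts in patterning of the body axis, midbrain and hindbrain, and in growth of the fins and neuromasts.

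The oligonucleotides that define the groups are given 5′ to 3′ because they alone set the groups apart in the labels.
hace1-HECT morpholino: ccctcgaactgttagacagaataaa
standard control morpholino: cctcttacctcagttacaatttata

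Estimated gene counts, which need not be whole, summed to between 5192490 and 10413981 per library, and the 81 Wnt entries together held between 18019 and 40181 of them (0.337% to 0.398%). The control libraries differed from each other more than the hace1 libraries did, with a median absolute log2 difference of 0.29 against 0.17 over 10832 tested genes. Control A was also the shallowest library. Levels are given in CPM, that is, estimated counts scaled to a common library size. Total hace1 RNA was 18.6 and 13.5 CPM in controls A and B and 13.7 and 13.5 CPM in the A and B libraries of hace1 morphants. That difference did not pass the test (log2 fold change -0.19 ± 0.22 SE, limma-voom adjusted p = 0.647), and a splice-blocking oligonucleotide need not alter its target's total count. Where 4 values stand together below, they follow that order of libraries. Markers of skeletal muscle, blood, skin, neurons, lens and hatching gland were all tested in these whole embryos, while rho, sox10 and myod1 were among the markers listed at 0.

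Of the 81 entries, 43 were listed at 0 in all libraries, 5 were too low to test and 33 were tested. Over all genes, 19279 of 32512 entries were listed at 0, so zeros are common throughout the deposited data. The zeros among the Wnt entries take in genes at the centre of the pathway. They cover 14 of 18 receptor genes, including lrp5, both Ror genes and 11 Frizzled genes, as well as axin1, dvl3a, vangl1 and vangl2. Also listed at 0 were 13 of 26 ligand entries, wnt3, wnt3a, wnt8b and wnt11 among them, and 6 of 8 secreted inhibitors. None of the 43 had an exon line in the deposited file (0 of 43). Entries for genes that every cell uses, such as those spelled gsk3b and ruvbl2, are at 0 in that file too. Another entry, spelled GSK3B, was tested, at 3.68 and 4.55 CPM in control A and B and 2.85 and 3.84 CPM in hace1 A and B. Each of the 43 is therefore given as listed at 0 and no more. All 5 Tcf/Lef genes were tested. The 5 low entries were wnt6b, wnt7ba, rspo4 and a pair of overlapping wnt8a entries that can share reads. Of these, wnt6b had estimated counts of 0.333 and 4.14 in the control and 9.49 and 9.84 in the hace1 libraries.

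No tested Wnt gene was called different between hace1 and control morphants (0 of 33 at an adjusted p below 0.05, limma-voom with Benjamini-Hochberg adjustment over all tested genes). Over all tested genes 2.76% were called (149 higher, 1.38%, and 150 lower, 1.38%, or 105 and 523 when scaled by library totals alone), so a count of 0 among 33 is close to the background. At an unadjusted p below 0.05, 1 of the 33 passed, the planar polarity gene prickle3, against 22.4% of all tested genes. Limma on log2 CPM without voom weights also called 0 of the 33, where it called 227 of 10832 tested genes. Limma on the authors' deposited log2 values called 0 of the 33 too. It called only 1 of 10832 genes, so its 0 says little about the members. The libraries of 1 group all lay above those of the other for 12 of the 33 genes, 6 higher and 6 lower in hace1 morphants, against 53.6% of all tested genes. Log2 fold changes ran from -0.59 (prickle3) to 0.47 (wnt16), with 16 above 0 and 17 below. The median was -0.0045 for the Wnt genes and 0.0051 for all tested genes. Standard errors lay between 0.16 and 0.55, and a gene that misses the threshold is not thereby shown to be the same in both groups.

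**Figure D1:**
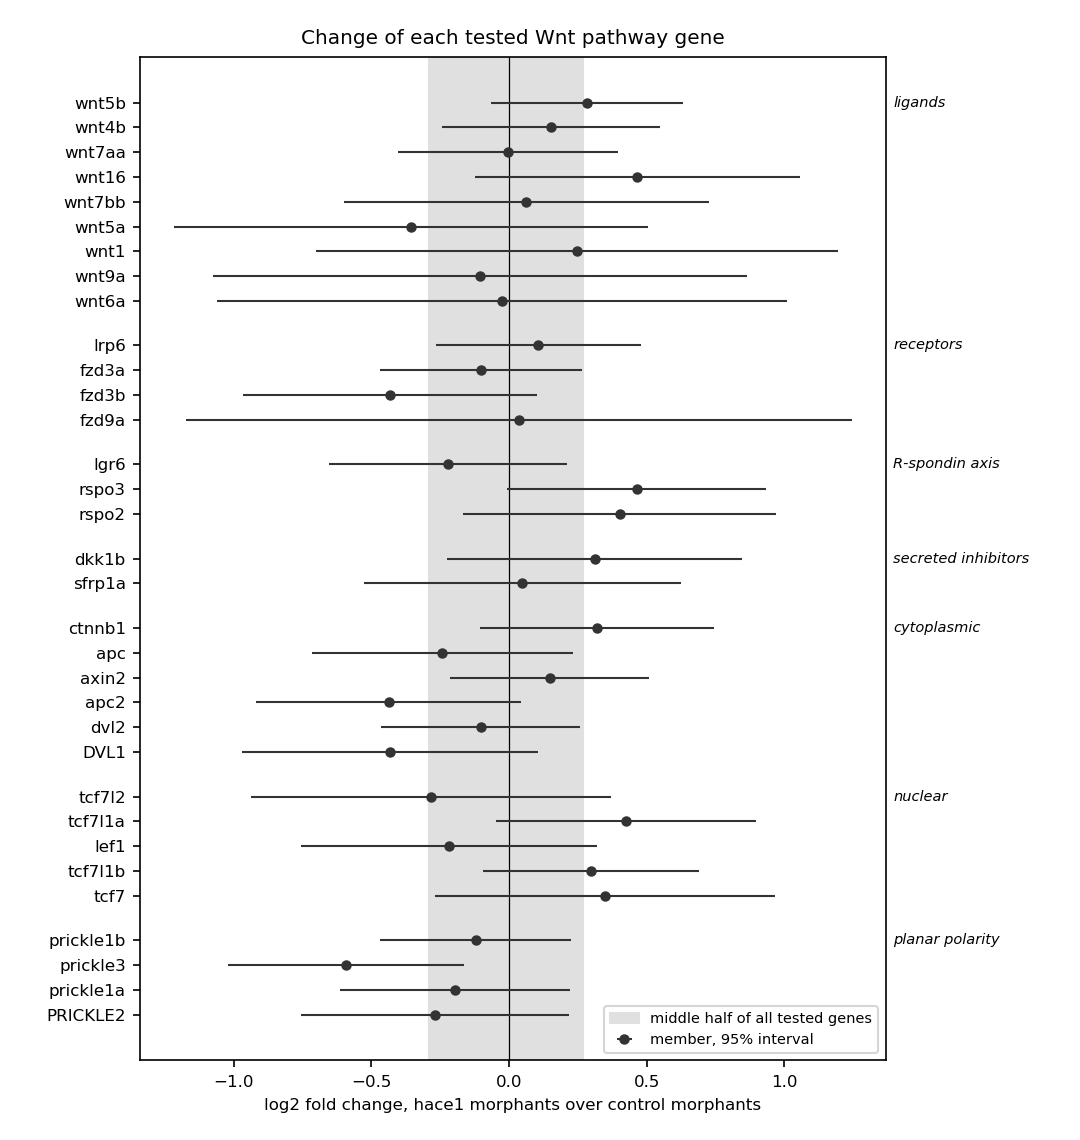
Log2 fold change of hace1 over control morphants for the 33 tested Wnt pathway genes, ordered by role, with 95% intervals from limma-voom (2 libraries per group). The grey band spans the middle 50% of all tested genes, and only the interval of prickle3 lies wholly to one side of 0.

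Per length, beta-catenin RNA exceeded that of every other tested member. Per kilobase of exon, ctnnb1 reached a mean of 472 CPM per kb over the 4 libraries, followed by tcf7l2 with 84.6, tcf7l1a with 64.2, lef1 with 60.2 and lrp6 with 41.6. The next were tcf7l1b with 35.9 and fzd3a with 28.7 CPM per kb. On the same scale the 9 tested ligands ran from 14.1 for wnt4b down to 0.955 for wnt6a, and the receptor gene fzd9a was lowest at 0.683 CPM per kb. The median of all tested genes was 6.64 CPM per kb and that of the tested Wnt genes 8.61.

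**Figure D2:**
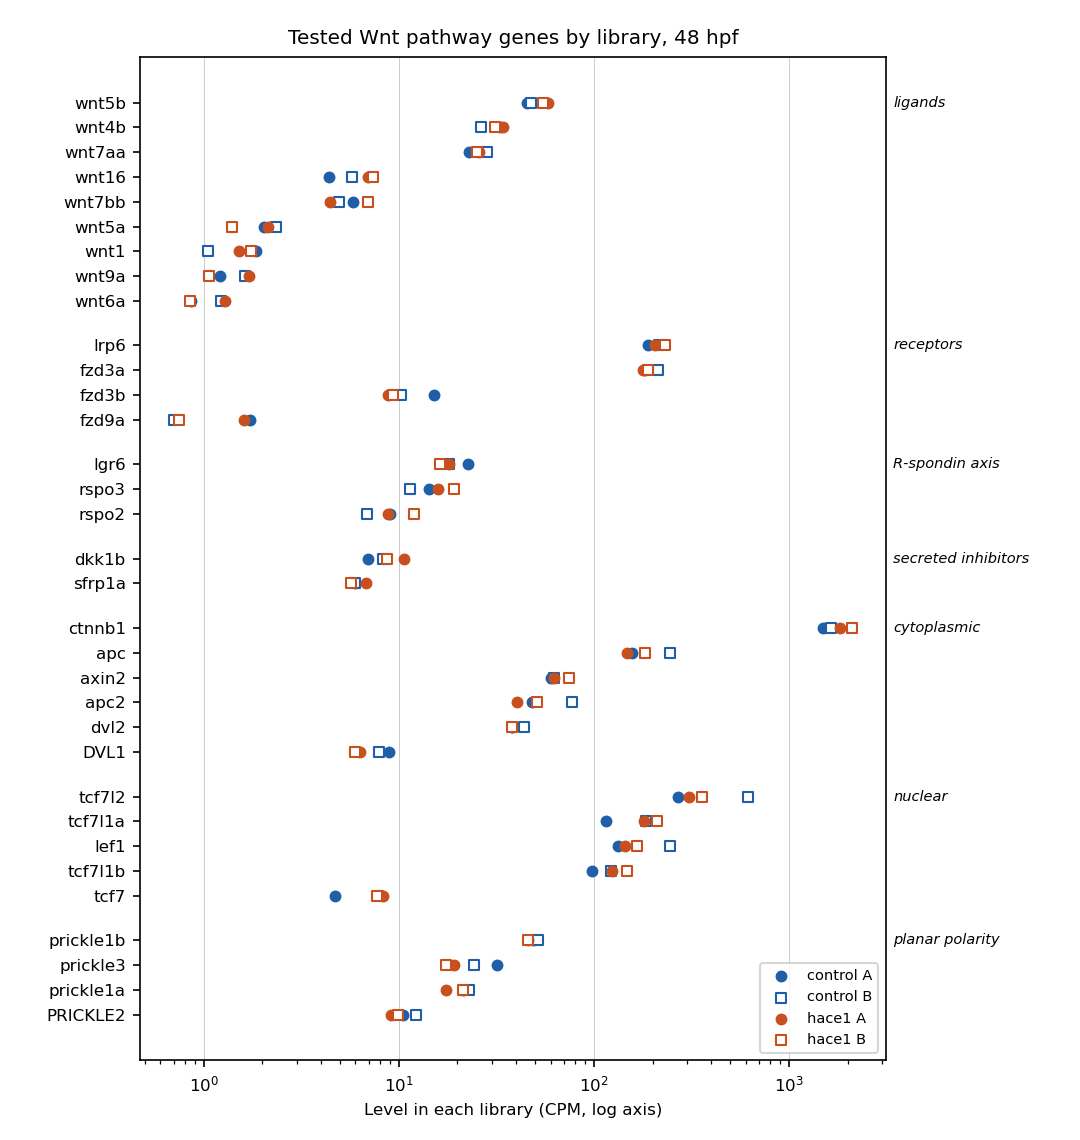
Level of each tested Wnt pathway gene in each library, in CPM on a log axis, with control libraries in blue, hace1 libraries in orange, A as filled circles and B as open squares. Levels on this axis are not divided by gene length, so genes are compared across libraries and not with each other. The 4 libraries of most genes lie close together, while control B stands to the right for tcf7l2, lef1, apc and apc2.

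Among the ligands, wnt5b, which acts mainly through the branch independent of beta-catenin, was 45.6 and 47.5 CPM in the controls and 58.5 and 55.0 CPM in the hace1 libraries. The hace1 libraries were above both controls, yet the difference did not pass the test (log2 fold change 0.28 ± 0.16 SE, 95% interval -0.06 to 0.63, limma-voom adjusted p = 0.315). Another ligand gene, wnt4b, stood at 33.2, 26.3, 34.0 and 31.1 CPM in the same order, and its groups overlapped (0.15 ± 0.18, adjusted p = 0.662). Wnt16, a ligand that in zebrafish is known from somites and blood stem cell formation, had the largest positive value of the members, 0.47 ± 0.27 SE (adjusted p = 0.332). Its libraries held only 25.4, 49.6, 64.3 and 72.6 counts. For wnt7aa, with 22.8, 28.2, 25.8 and 25.3 CPM, the estimate was -0.0045 with an interval of -0.40 to 0.39. The remaining tested ligands, wnt7bb, wnt5a, wnt1, wnt9a and wnt6a, lay between -0.36 and 0.25 on the log2 scale, and the last 4 of them had mean levels of 1.06 to 1.98 CPM. Of the 9 tested ligands, the groups were separate for 2, wnt5b and wnt16, against 53.6% of all tested genes. Called were 0 of the 9, against 2.76% of all tested genes.

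Of the 4 receptor genes not listed at 0, the most abundant per length were lrp6, the co-receptor needed for beta-catenin signalling, and fzd3a, a Frizzled known for axon guidance and planar polarity. Lrp6 was 189.7, 216.6, 205.5 and 231.1 CPM (log2 fold change 0.11 ± 0.17 SE, limma-voom adjusted p = 0.754). Fzd3a was 184.0, 212.6, 178.0 and 190.3 CPM (-0.10 ± 0.17 SE, adjusted p = 0.763). The groups overlapped for both genes. The paralogue fzd3b, named after its values were seen, was far lower at 15.2, 10.3, 8.79 and 9.33 CPM. The controls lay above both hace1 libraries, control A most of all, without passing the test (-0.43 ± 0.24 SE, adjusted p = 0.317).

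On the R-spondin axis, rspo3, a secreted enhancer of Wnt reception, was 14.3, 11.5, 15.9 and 19.2 CPM. All hace1 values exceeded the controls, and the interval of the difference barely included 0 (0.46 ± 0.22 SE, 95% interval -0.01 to 0.93, limma-voom adjusted p = 0.229). The related rspo2, known for its part in limb and lung growth in mammals, gave 9.02, 6.87, 8.79 and 11.9 CPM with overlapping groups (0.40 ± 0.26, adjusted p = 0.383). Lgr6, which encodes an R-spondin receptor, was 22.5, 18.1, 18.0 and 16.3 CPM (-0.22 ± 0.20, adjusted p = 0.544). Values for rspo2 are given although the naming rule did not select it. The cenpw gene overlaps rspo3 in the annotation, as fbxo16 does fzd3a, and with an unstated strand setting their reads may not be fully separated.

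Only dkk1b and sfrp1a were tested among the secreted inhibitors. Dkk1b, which blocks Lrp co-receptors, was 6.93, 8.31, 10.6 and 8.68 CPM, with hace1 B only just above control B (0.31 ± 0.25 SE, limma-voom adjusted p = 0.482). Sfrp1a, a decoy for Wnt proteins, was 5.98, 5.97, 6.80 and 5.66 CPM (0.05 ± 0.26, adjusted p = 0.935). Their libraries held between 34.6 and 98.4 counts, which limits the precision.

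In the cytoplasmic group, ctnnb1 (ENSDARG00000014571, Zv9 chromosome 16, 7435502 to 7458987) was 1501 and 1643 CPM in the controls and 1827 and 2100 CPM in the hace1 libraries. The groups did not overlap, averaging 1572 ± 100.1 and 1964 ± 193 CPM (SD, n = 2 per group). The difference of 0.32 ± 0.20 SE on the log2 scale did not pass the test (95% interval -0.11 to 0.75, limma-voom adjusted p = 0.354). Axin2, the feedback component and a common readout of beta-catenin signalling, was 60.3, 62.3, 62.2 and 74.2 CPM, where hace1 A lay between the controls (0.15 ± 0.17, 95% interval -0.21 to 0.51, adjusted p = 0.638). Of the Dishevelled genes, dvl2 was 37.9, 43.6, 37.9 and 38.1 CPM (-0.10 ± 0.17, adjusted p = 0.754). The entry DVL1 was 8.93, 7.91, 6.36 and 5.99 CPM, lower in both hace1 libraries but not called (-0.43 ± 0.25, adjusted p = 0.319). Another entry with the symbol DVL1, which overlaps it in the annotation, was listed at 0. Axin2, dvl2 and DVL1 were named after their values were seen. The Apc scaffold genes apc and apc2 are described with the control libraries below.

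The tested planar polarity genes, all of them Prickle genes, had log2 fold changes below 0 (4 of 4, 0 called), where 50.5% of all tested genes were above 0. The entries vangl1, vangl2 and prickle2 were listed at 0. Prickle3 (ENSDARG00000073996, chromosome 8, 51479372 to 51565292), a cytoplasmic LIM-domain protein of the Prickle family, was 32.0 and 24.3 CPM in the controls against 19.2 and 17.4 CPM in the hace1 libraries. Both hace1 values were below both controls, with averages of 28.2 ± 5.43 and 18.3 ± 1.27 CPM (SD, n = 2 per group). On the log2 scale the difference was -0.59 ± 0.20 SE (95% interval -1.02 to -0.16), with an unadjusted p of 0.0109 and a limma-voom adjusted p of 0.112. Of the prickle3 counts, 84.2% fell in its last exon region, the only one with at least 50 counts over the libraries. Prickle1b, which steers facial motor neuron migration in zebrafish, was 48.6, 51.5, 46.1 and 46.1 CPM (-0.12 ± 0.16, adjusted p = 0.693). Prickle1a and PRICKLE2, named after their values were seen, were at -0.20 ± 0.19 and -0.27 ± 0.22 (adjusted p = 0.578 and 0.509).

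The Tcf/Lef genes, which encode the DNA-binding partners of beta-catenin, differed more within the control group than between groups. Tcf7l2 (ENSDARG00000004415, chromosome 12, 32666837 to 32790417) was 271.7 CPM in control A but 619.8 in control B, and 309.3 and 359.1 CPM in the hace1 libraries. Both hace1 libraries thus fell between the controls, and control B was the one library apart. Group averages were 446 ± 246 and 334 ± 35.2 CPM (SD, n = 2 per group), a log2 difference of -0.28 ± 0.30 SE (limma-voom adjusted p = 0.615). Lef1 (ENSDARG00000031894, chromosome 1, 50321544 to 50410570), the mainly activating member of the family, followed the same order of libraries at 133.1, 246.7, 144.4 and 166.0 CPM (-0.22 ± 0.25, adjusted p = 0.642). Control A was the lowest library for all 5 Tcf/Lef genes. For tcf7l1a and tcf7l1b, whose products are known chiefly as repressors that keep Wnt targets off in the anterior brain, hace1 B was the highest. Tcf7l1a was 116.1, 184.3, 181.3 and 211.1 CPM (0.42 ± 0.22, adjusted p = 0.27), and tcf7l1b was 98.2, 123.2, 123.6 and 147.5 CPM (0.30 ± 0.18, adjusted p = 0.350). For tcf7l1b both hace1 libraries lay above both controls, hace1 A only just. Its controls differed by 0.33 on the log2 scale, little more than its groups did. Tcf7, at 4.71, 7.81, 8.35 and 7.72 CPM, was highest in hace1 A (0.35 ± 0.28, adjusted p = 0.497). Of these 5 genes, only tcf7l2 and tcf7l1a were picked by the naming rule.

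Counted over the 33 genes, 6 (18.2%) were at least 1.5-fold higher in control B than in control A, against 9.38% of all tested genes. They were tcf7l2, lef1, tcf7l1a, tcf7, apc and apc2, that is, 4 of the 5 Tcf/Lef genes and both Apc genes. In the other direction wnt1 and fzd9a, both under 2 CPM, were at least 1.5-fold higher in control A (10.7% of all tested genes were). Apc, the scaffold of the destruction complex, was 156.7, 245.6, 148.6 and 183.3 CPM, and its paralogue apc2, known mainly from neurons, was 48.5, 77.4, 40.3 and 51.4 CPM. As with tcf7l2, control B stood above the other 3 libraries for both. Control B was the highest of the 4 libraries for 11 of the 33 genes (23.5% of all tested genes) and control A the lowest for 13 (31.1% of all tested genes). The hace1 libraries were at least 1.5-fold apart for 5 members (8.25% of all tested genes), the receptor gene fzd9a and 4 ligand genes, each with a mean under 6 CPM. These comparisons of single libraries were chosen after the values were seen and carry no test.

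Which Wnt genes were called therefore depended on the control library. Without control A, limma-voom called 4 of 33 lower in hace1 morphants, against 7.42% of all tested genes called lower, 6.88% higher and 14.3% in all in that fit. They were tcf7l2 (-0.89 ± 0.16 SE), apc2 (-0.75 ± 0.15), lef1 (-0.66 ± 0.15) and apc (-0.56 ± 0.15), with adjusted p between 1.85e-06 and 0.00318. Without control B, limma-voom called 4 others, against 23.7% of all tested genes (11.7% higher, 12.0% lower). Tcf7l1a (0.75 ± 0.15) and tcf7l1b (0.45 ± 0.16) were called higher, and prickle3 (-0.81 ± 0.20) and fzd3b (-0.75 ± 0.26) lower, with adjusted p between 4.17e-05 and 0.0201. In that second fit tcf7l2, lef1 and apc had turned to 0.29, 0.21 and 0.07, and apc2 stood at -0.10. Without control A, in turn, tcf7l1a was at 0.10, tcf7l1b at 0.14, prickle3 at -0.40 and fzd3b at -0.18, and none of these was called. Without hace1 A, 0 of 33 were called, against 0.12% of all tested genes (0.111% higher, 0.00923% lower), and without hace1 B also 0 of 33, against 0.0739% (all of them higher, 0.0739%). These fits rest on 1 control or 1 hace1 library, assumed to vary like the remaining pair, and without either control the called share of Wnt genes (12.1%) was below that of all genes in both directions together.

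**Figure D3:**
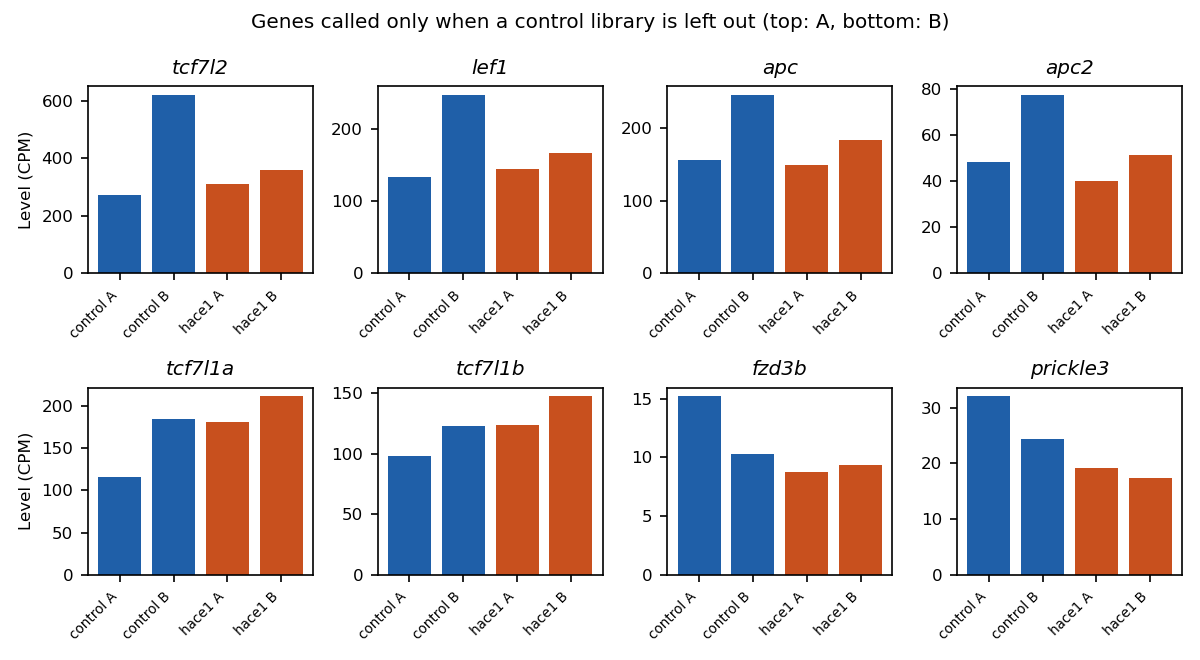
Level in each library, in CPM on axes that start at 0, of the 8 Wnt pathway genes called only with a control library left out (top row without control A, bottom row without control B). In the top row control B is the tallest bar for all 4 genes, and in the bottom row control A is the extreme bar for all 4. The genes were picked by those fits, so this pattern largely follows from the choice.

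Summed levels of tissue markers did not all follow the same order of libraries. Neuron markers (7 of 9 tested, 0 called higher, 2 lower, with snap25b listed at 0) summed to 1027 and 1140 CPM in control A and B and to 811 and 898 CPM in hace1 A and B. Lens markers (2 of 6 tested, 0 called, cryaa, crybb1, cryba4 and mipa at 0) summed to 1333, 2281, 1494 and 1137 CPM, so control B was highest there too. Skeletal muscle markers (7 of 12 tested, 3 called higher, 0 lower, with myod1 and myog among 5 at 0) summed to 42618 and 46785 CPM in the controls and 62239 and 53603 CPM in the hace1 libraries. Photoreceptor markers (5 of 12 entries tested, 0 called higher, 3 lower, with rho, gnat1 and crx among the 7 entries at 0) summed to 32.5, 34.1, 16.0 and 15.3 CPM. Of the other markers, 2 of 6 erythroid, 1 of 8 skin and 4 of 4 hatching gland entries tested were called higher, and 0 of 1 of fin and neural crest. The hatching gland calls include a pair of entries with the same symbol, ctslb (log2 fold changes 2.13 and 2.12). A further ctslb entry was listed at 0. Over all tested genes 1.38% were called higher and 1.38% lower. The erythroid calls include blvrb (log2 fold change 0.88 ± 0.18 SE). An entry spelled BLVRB, which overlaps it in the annotation, went the other way without being called (-0.53 ± 0.20). The part of these tissues in the Wnt values was not tested, and in whole embryos fewer cells of a type and less RNA per cell cannot be told apart.

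At the level of exons, tcf7l2 and lef1 were highest in control B in every region with at least 50 counts. These regions are parts of the gene counts by which both genes were picked, so they are no separate support. Tcf7l2 had 16 exon regions with at least 50 counts over the libraries, and control B was the highest library in 16 of 16, by a median of 2.16-fold over control A (range 1.26 to 3.69). Its last region, which holds 64.3% of its counts, was 164.3, 391.8, 207.1 and 235.0 CPM. Control B was likewise highest in 11 of 11 regions of lef1, with a median ratio to control A of 1.81, in 6 of 7 regions of apc and in 3 of 4 of apc2. Control A was lowest in 11 of 12 regions of tcf7l1a. For ctnnb1 the hace1 libraries lay above both controls in 10 of 15 regions. These regions, like those of apc, apc2 and tcf7l1a, are parts of gene counts given above and no separate support. The share of such regions over all genes was not counted.

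Exon use was tested with limma diffSplice, which asks whether the exons of a gene change relative to each other. None of the 32 Wnt genes with enough exon regions was called (0 of 32, and 0 at an unadjusted p below 0.05), against 0.0105% of all genes tested (1 of 9510). Rspo2 had the smallest p of the members (0.0569, diffSplice adjusted p = 0.959, over 4 regions).

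**Figure D4:**
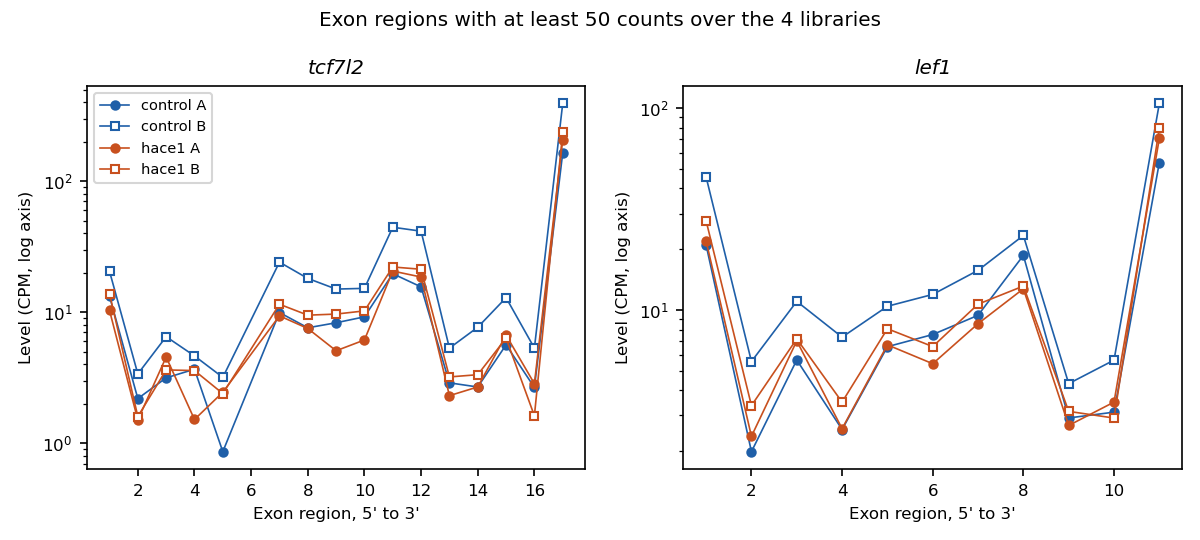
Level of each exon region of tcf7l2 (left) and lef1 (right) in each library, in CPM on a log axis, with regions numbered from the 5′ end and only those with at least 50 counts shown. The control B line lies above the other 3 in all 16 regions of tcf7l2 and all 11 of lef1.

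Wnt pathway genes beyond the symbol rule were taken from 5 lists, and of their 86 tested genes 1 was called higher and 2 lower, a share near the 2.76% of all tested genes. Of 14 tested genes of ligand secretion and extracellular control, 0 were called (median log2 fold change 0.0014). Closest to the threshold were gpc3, a glypican of the cell surface, and notum2, of a family of Wnt-inactivating enzymes. Gpc3 was 7.84, 6.92, 3.93 and 2.26 CPM (-1.29 ± 0.32 SE, limma-voom adjusted p = 0.0518), lower in 2 of 2 hace1 libraries. Notum2 was 7.09, 8.27, 12.9 and 13.6 CPM (0.77 ± 0.23, adjusted p = 0.0852), higher in 2 of 2.

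Among 18 tested genes of the destruction complex and of beta-catenin regulation, 1 was called lower and 0 higher (median 0.04). It was tnks, whose product tankyrase marks Axin for degradation, at 93.3 and 86.0 CPM in the controls and 55.6 and 52.5 CPM in the hace1 libraries. The hace1 libraries were well below both controls, which differed little (log2 fold change -0.73 ± 0.16 SE, limma-voom adjusted p = 0.0404). A second entry, spelled TNKS, was listed at 0. Ctnnb2, the second zebrafish beta-catenin gene, was 481.7, 392.3, 593.5 and 618.8 CPM (0.47 ± 0.18, adjusted p = 0.158). Like ctnnb1 it was higher in 2 of 2 hace1 libraries without being called, and it was named after its values were seen. Closer to the threshold in this list, and not called either, were jupa and dact1, which went opposite ways. Jupa was at 0.63 ± 0.17 and dact1 at -0.51 ± 0.19 (limma-voom adjusted p = 0.0629 and 0.144).

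In the planar polarity and non-canonical effector list 1 of 25 tested genes was called lower and 0 higher (median -0.23). It was camk2d2, a calcium/calmodulin-dependent kinase gene, at 55.8 and 63.5 CPM in the controls and 38.2 and 34.8 CPM in the hace1 libraries (-0.71 ± 0.17 SE, limma-voom adjusted p = 0.0464). The atypical cadherin gene celsr3, a neuronal planar polarity gene chosen after its values were seen, was 114.2, 122.9, 69.8 and 81.3 CPM (-0.65 ± 0.16, adjusted p = 0.0528). The related celsr1a (0.15 ± 0.18) and celsr2 (0.0027 ± 0.18) did not share this fall, and their groups overlapped. The neuron markers given above, like celsr3, were lower in both hace1 libraries, and their part in these values was not tested. Of 18 tested nuclear co-factors 0 were called (median -0.12), with the acetyltransferase gene ep300a at -0.52 ± 0.16 and the co-repressor component gene tbl1xr1a at 0.46 ± 0.16 (adjusted p = 0.0899 and 0.129).

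Of 12 tested genes listed as targets of Wnt signalling, 1 was called higher and 0 lower (median 0.18), and 17 of the 31 entries were listed at 0. The 1 was the proto-oncogene mycb, at 44.0 and 51.2 CPM in the controls and 72.9 and 84.1 CPM in the hace1 libraries (0.72 ± 0.17 SE, limma-voom adjusted p = 0.0483), higher in 2 of 2. Sp8b, a zinc-finger gene of fin and brain, also named after its values were seen, was 75.4, 109.0, 131.4 and 134.7 CPM (0.55 ± 0.19, adjusted p = 0.125). The cyclin gene ccnd1, likewise named, was 364.8, 330.1, 458.6 and 481.1 CPM (0.43 ± 0.17, adjusted p = 0.169). These genes also respond to many other signals. The calls of tnks, camk2d2 and mycb held with either control library left out and ended with either hace1 library left out. The share of all genes called moved the same way in those fits, as given above, so this says little about these genes. Their log2 fold changes with 1 library left out were -0.79 to -0.66 (tnks), -0.79 to -0.62 (camk2d2) and 0.62 to 0.82 (mycb). The call of tnks also ended in the authors' deposited log2 values, where 1 of 10832 genes was called. That of camk2d2 ended there, without voom weights and without a filter, and that of mycb in all of these and under library totals.

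**Figure D5:**
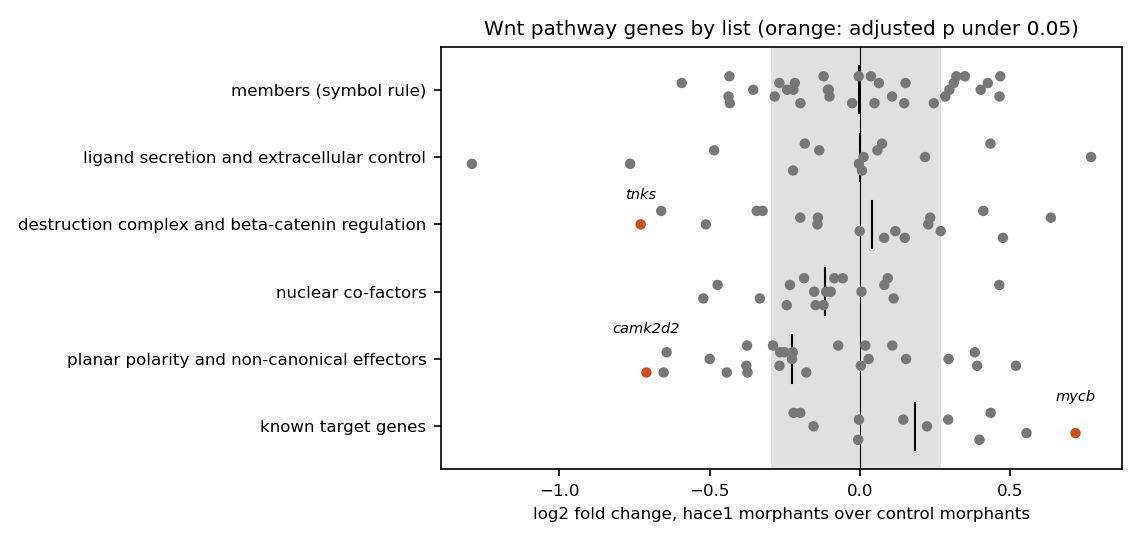
Log2 fold change of hace1 over control morphants for the 33 tested members and for the tested genes of 5 other Wnt pathway lists, 1 point per gene, with list medians as black lines and the middle 50% of all tested genes as a grey band. Tnks, camk2d2 and mycb (orange) are the genes with an adjusted p below 0.05.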

How the data were processed

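Zv9 is the build named in the submitters' processing notes, which also name TopHat2 2.0.6, Bowtie2 2.0.2, DESeq and cutadapt 1.2.1. No source used here gives the counting program or its strand setting. Deposited by the authors were estimated counts per gene and exon, recorded here as other than whole counts, and a table of log2 values per gene. Column names matched sample titles, and 0 columns were left unmatched.

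Library sizes were adjusted by a reimplemented trimmed mean of M values (TMM), with 30% of the ratios and 5% of the levels trimmed. Tested genes had 10 counts, at a median-sized library, in 2 or more libraries and 15 in total. The test was limma-voom (limma 3.58.1, R 4.3.3) on group alone, adjusted by Benjamini-Hochberg across tested genes. Exon lines that overlap were merged into regions and tested with diffSplice where a region had 10 counts. Both fits were tested on simulated data. The gene fit recovered 72% of 2-fold and 96% of 4-fold changes, with 7 false calls in all. The exon fit recovered 100% of 4-fold changes, with 10 false calls. Those exon changes were planted only in genes with several well-counted regions. Many of the Wnt genes lack such regions, so this recovery need not hold for them. All simulated libraries varied alike, whereas the controls here differed more than the hace1 libraries. Changes under 2-fold were not simulated. CPM per kb divides by merged exonic length.

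Members and lists were chosen with earlier results of these data known. Values in every library are given for members called, those with an unadjusted p below 0.05, and the 2 most abundant tested members per role. Of the other lists, called genes or the 2 with the smallest p are named. Every other gene named was chosen after its values were seen. Settings tried were other scalings, filters, tests, a replicate block and leaving out each library. Libraries A and B of the groups did not deviate together (correlation -0.00872 over 6390 genes), so the letters were not treated as pairs. The value of 1 marker gene is not reported here.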

Additional observations from a re-analysis of the deposited data

How the results depend on the processing

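The count of 0 Wnt genes called held under 8 of 8 settings that kept all libraries, and that of 0 genes with called exon use held under every setting run. The exon test called only 1 of 9510 genes in the main fit, so its 0 says little about the members. Leaving out 1 library in turn gave 0 to 4 Wnt genes called, 8 to 2572 genes called over all genes, 0 to 22 other Wnt pathway genes, and a median log2 fold change of the Wnt genes between -0.0715 and 0.0686. Over all 10832 tested genes, 299 were called, with 628 under library totals and 227 with limma-trend. The authors' deposited log2 values gave 1 and the replicate block 914. With no filter 213 of 13233 genes were called, and with the stricter filter 392 of 8173. Of the 86 other Wnt pathway genes, 3 were called, with 5 under library totals and 1 with limma-trend. The deposited log2 values gave 0 of them and the replicate block 7. With no filter 1 was called and with the stricter filter 5, where the number tested may differ. Library totals put the median of all genes at -0.145, left 16.7% of calls higher against 49.8%, and put the Wnt median at -0.16. With no filter that median was 0.0568. The cause of these shifts was not tested.

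Some estimates changed sign, and none was called where its sign had turned. Wnt7aa was 0.0085 with no filter, 0.0106 with limma-trend and 0.0256 from the deposited values, and wnt6a 0.0311 and 0.0516 under the last 2. Fzd9a was -0.0912 under library totals, -0.0098 with limma-trend and -0.0416 with the replicate block. Under library totals wnt7bb was -0.0795, lrp6 -0.0528, sfrp1a -0.0964 and axin2 -0.0065. With 1 library left out, wnt4b (-0.0354 to 0.31), wnt7aa (-0.13 to 0.16), wnt7bb (-0.26 to 0.37), wnt1 (-0.21 to 0.60), wnt9a (-0.43 to 0.23), wnt6a (-0.30 to 0.27), fzd9a (-0.67 to 0.59), sfrp1a (-0.0808 to 0.18), apc (-0.56 to 0.07), tcf7l2 (-0.89 to 0.29) and lef1 (-0.66 to 0.21) took either sign. With 2 libraries per group, counts under about 100 per library limit what can be told for the low ligands and inhibitors.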
